A study of Mus musculus with 10 samples.

Results

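The Hox cluster genes were followed here through the accessible chromatin around them. Members were the peaks of a deposited ATAC-seq table that lay inside the bounds of a protein-coding gene named Hoxa, Hoxb, Hoxc or Hoxd plus a number, or outside genes with such a gene as the nearest one within 50 kb. This gave 134 of 122984 peaks, spread over 4 clusters that hold 39 Hox genes. ATAC-seq reads out open DNA by letting a transposase cut and tag it. The cells were adipocytes made from MAP cells, a single immortalized line of mouse adipocyte progenitors (the labels give progenitors as the cell type), in 5 groups of 2 libraries. The groups were 3 days of rosiglitazone, a ligand of PPARγ (Rosi 3D), vehicle (control), and 4 hours, 1 day and 3 days of forskolin, which activates adenylyl cyclase and raises cAMP (FSK at 4h, 1D and 3D). The doses of these treatments are not given in the sources used here. Every group, control included, had been differentiated with insulin, 500 uM isobutylmethylxanthine, 1 uM dexamethasone and 1 uM rosiglitazone for 2 days, then with insulin and rosiglitazone for 2 days more, so the control cells had also met rosiglitazone and, with isobutylmethylxanthine, an inhibitor of cAMP breakdown. Treatment was given to the differentiated cells at day 7 to 8, and 10000 sorted nuclei went into each library.

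Hox proteins are homeodomain transcription factors that give cells a position along the head-to-tail axis. Their genes stand in clusters whose order follows that axis, from anterior genes (low numbers) to posterior ones (high numbers), and Polycomb proteins keep silent stretches of a cluster closed while trithorax proteins keep active ones open. Adult fat depots keep depot-specific sets of active Hox genes. The clusters also hold microRNAs of the miR-10 and miR-196 families, which are known to target Hox transcripts.

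The RefSeq table of promoter windows (GRCm38.p6, 250 bases before to 50 after a start) matched 22 of the 39 Hox genes with 24 windows, and a Hox peak overlapped 7 of them. Most of these windows belong to Hoxa and Hoxd genes, and Hoxc4 is the only Hoxc gene among them. The window shares below therefore do not stand for all Hox promoters. The windows of Hoxa3, Hoxa6 and Hoxd9 are printed because they stand for a strongly accessible, a middling and a barely accessible start, with 35.5, 5.87 and 1.68 mean CPM (counts scaled to library size) in their peaks. The peak covered all 300 bases of the Hoxa3 window at chr6:52213018-52213317, 286 of the Hoxa6 window at chr6:52208623-52208922 and 136 of the Hoxd9 window at chr2:74697513-74697812. Hoxa3 and Hoxa6 lie on the minus strand and Hoxd9 on the plus strand. Capitals mark, on either strand, TGACG (a short form of the cAMP response element), TGATNNAT (bound by HOX with PBX), TGACAG (bound by MEIS) and CCAAT, and no marked stretches overlap.
Hoxa3 promoter: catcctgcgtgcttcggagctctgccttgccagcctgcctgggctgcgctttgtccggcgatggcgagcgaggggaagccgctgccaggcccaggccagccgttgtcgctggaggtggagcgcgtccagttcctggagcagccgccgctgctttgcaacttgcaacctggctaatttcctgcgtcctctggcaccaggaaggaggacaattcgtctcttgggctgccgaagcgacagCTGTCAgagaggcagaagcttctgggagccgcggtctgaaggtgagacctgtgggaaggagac
Hoxa6 promoter: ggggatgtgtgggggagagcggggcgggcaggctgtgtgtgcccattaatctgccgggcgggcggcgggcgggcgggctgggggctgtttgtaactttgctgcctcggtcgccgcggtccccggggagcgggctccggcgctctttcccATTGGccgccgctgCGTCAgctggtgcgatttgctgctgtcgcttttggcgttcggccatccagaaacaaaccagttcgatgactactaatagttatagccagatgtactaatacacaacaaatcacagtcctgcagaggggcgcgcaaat
Hoxd9 promoter: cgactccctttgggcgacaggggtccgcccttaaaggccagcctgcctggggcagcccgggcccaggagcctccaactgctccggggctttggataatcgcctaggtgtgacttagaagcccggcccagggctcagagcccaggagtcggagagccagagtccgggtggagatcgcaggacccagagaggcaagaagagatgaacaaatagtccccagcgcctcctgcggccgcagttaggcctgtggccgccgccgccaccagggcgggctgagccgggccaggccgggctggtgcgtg
The Hoxa3 window held 1 TGACAG, the Hoxa6 window held 1 TGACG and 1 CCAAT, and the Hoxd9 window held none of the 4. TGACG stood in 7 (29.2%) of the 24 Hox windows, against 20.8% of all 32851 windows. TGATNNAT stood in 4 (16.7%) of the Hox windows against 8.85% of all windows, TGACAG in 2 (8.33%) against 19.2%, and CCAAT in 15 (62.5%) against 37.4%. The whole element TGACGTCA, which contains TGACG, stood in none of the 24 Hox windows and in 1.79% of all windows. The Hox windows had a median GC content of 57.7% and a median of 14.5 CG dinucleotides, against 52.7% and 7 in all windows.

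The microRNAs of the clusters are printed in their mature RefSeq form, with the seed (bases 2 to 8) in capitals, because some of them lie beside peaks described here.
miR-615-3p: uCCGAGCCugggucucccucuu
miR-196a-5p: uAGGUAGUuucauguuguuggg
miR-196b-5p: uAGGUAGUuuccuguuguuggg
miR-10a-5p: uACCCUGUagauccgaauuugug
miR-10b-5p: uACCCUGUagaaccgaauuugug
The miR-196 pair share 1 seed, the miR-10 pair share another, and miR-615-3p has its own. The Mir615 hairpin lay 109 bp from the Hoxc5 gene-end peak and Mir196b lay 98 bp from a peak assigned to Hoxa10. Mir196a-2 lay 452 bp from a Hoxc10 peak, Mir10a 1105 bp from the Hoxb4 peak and Mir196a-1 3296 bp from a Hoxb9 peak. Mir10b, in the Hoxd cluster, had its nearest peak 9830 bp away. ATAC-seq does not measure the microRNAs themselves.

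Accessibility was uneven between and along the clusters. The Hoxc cluster (chromosome 15) held 53 peaks, Hoxb (chromosome 11) 40, Hoxa (chromosome 6) 35 and Hoxd (chromosome 2) 6. Peaks within the cluster bounds carried 5.28 CPM per kb of cluster in Hoxc, 3.42 in Hoxa, 1.90 in Hoxb and 0.121 in Hoxd, as means of 10 libraries. Peaks covered 19.0% of the Hoxc span, 16.0% of Hoxa, 11.3% of Hoxb and 2.02% of Hoxd. The 6 Hoxd peaks came to between 10.6 and 14.8 CPM in all in any library, against 556 to 761 CPM for the 53 Hoxc peaks. These are levels of a population of nuclei, in which a lower share of nuclei with an open region and less opening in each cannot be told apart. Between Hox peaks and all peaks, the median level was 5.66 against 2.59 CPM and the median width 409 against 358 bp. Of the Hox peaks 38.1% lay within 1 kb of an annotated end of their gene (gene-end peaks), against 12.9% of all peaks.

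**Figure D1:**
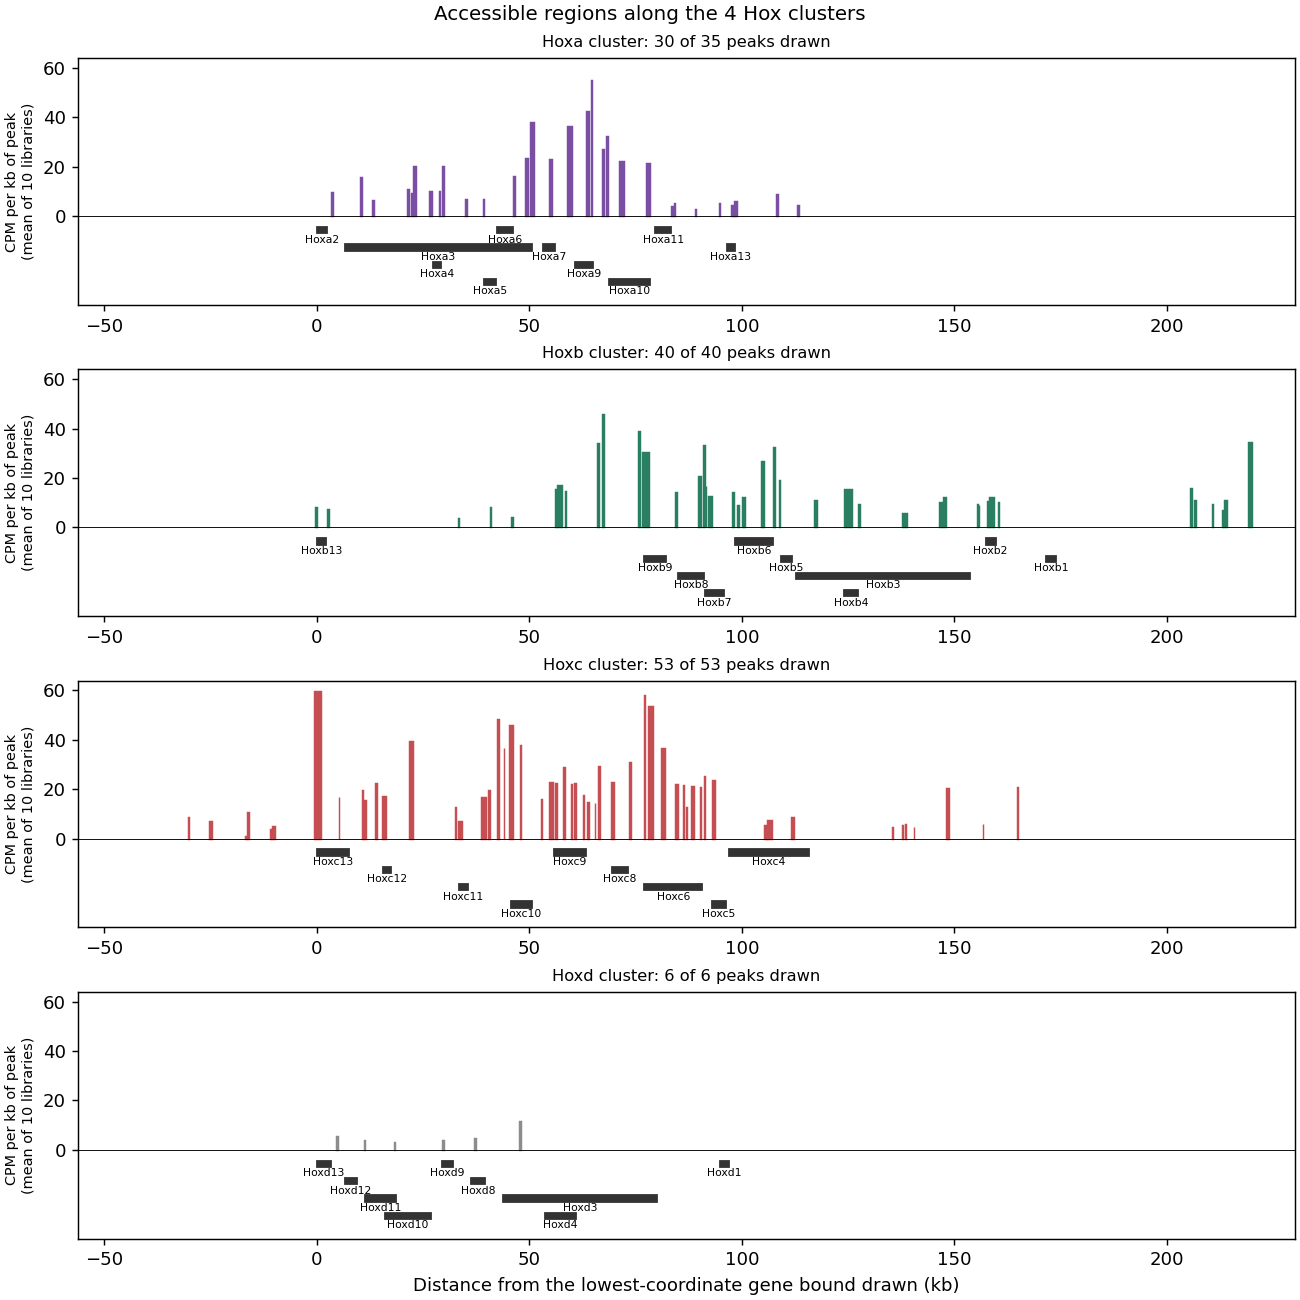
Accessibility along the Hoxa, Hoxb, Hoxc and Hoxd clusters, as mean CPM per kb of peak over 10 libraries (y axis) against distance in kb from the lowest-coordinate gene bound drawn (x axis), with gene bounds as dark boxes. Peaks reach 59.9 CPM per kb at Hoxc13, are low at Hoxa11, Hoxa13 and Hoxb13, and stay at or below 11.5 CPM per kb in Hoxd.

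Within the clusters, openness differed along the posterior genes of Hoxa, Hoxb and Hoxc, while Hoxd was low throughout. Low peaks were not confined to posterior genes. The Hoxa2 peak had 9.94 CPM per kb, the Hoxa4 peak had 10.1, and no Hoxb2 or Hoxb3 peak exceeded 12.2. In Hoxa the highest were 2 Hoxa9 gene-end peaks at chr6:52226920-52227238 and chr6:52225786-52226447, with 55.0 and 42.6 CPM per kb, and a Hoxa3 gene-end peak with 37.9 CPM per kb. Beyond Hoxa10, no Hoxa11 peak exceeded 5.43 CPM per kb and no Hoxa13 peak exceeded 8.96 CPM per kb. In Hoxb the highest was a peak 9656 bp from Hoxb9 at chr11:96261481-96261868 with 45.9 CPM per kb, followed by 38.9 in a peak 1198 bp from Hoxb9 and 34.5 in a peak 45618 bp from Hoxb1, while Hoxb13 stayed at or below 8.21 CPM per kb. Hoxc was open through its last posterior gene: the gene-end peak of Hoxc13 at chr15:102920618-102922273 had 59.9 CPM per kb, a mean of 99.2 CPM, and a level above 99.5% of all peaks. Gene-end peaks of Hoxc6 followed with 58.1 CPM per kb at chr15:102998045-102998265 and 53.6 CPM per kb at chr15:102999038-103000248. In Hoxd the highest was a peak within the Hoxd3 bounds at chr2:74715817-74716240 with 11.5 CPM per kb, followed by 5.61 near Hoxd13 and 4.63 at Hoxd8. Of the 39 genes, 33 had a peak assigned, and Hoxa5, Hoxa6, Hoxd1, Hoxd4, Hoxd10 and Hoxd12 had none. Hoxa5 and Hoxa6 lie inside the wide annotated bounds of Hoxa3 and each had 1 peak within 1 kb of an end, which the rule gave to Hoxa3. At the edge of the 50 kb limit, the farthest member was a peak 49140 bp from Hoxc4 with 7.46 CPM, and the nearest peak left out was 50579 bp from Hoxc4 with 14.8 CPM.

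The cluster totals were lower under forskolin than in control in Hoxa, Hoxb and Hoxc, with no overlap with the control libraries on the main scale. How often sums over other sets of peaks do the same was not counted. In Hoxc the summed peaks had 684 and 689 CPM with rosiglitazone, 747 and 761 CPM in control, 596 and 630 CPM after 4 hours of forskolin, 556 and 596 CPM after 1 day and 621 and 684 CPM after 3 days. In Hoxa the sums were 368 and 395 CPM with rosiglitazone, 398 and 411 CPM in control, 362 and 359 CPM after 4 hours, 309.5 and 344 CPM after 1 day and 348 and 390.1 CPM after 3 days. Hoxb had 402 and 421 CPM with rosiglitazone, 404 and 427 CPM in control, 364 and 373 CPM after 4 hours, 324 and 354 CPM after 1 day and 373 and 389 CPM after 3 days. Hoxd had 11.1 and 11.2 CPM with rosiglitazone, 11.4 and 10.8 CPM in control, 11.1 and 12.0 CPM after 4 hours, 12.2 and 10.6 CPM after 1 day and 12.2 and 14.8 CPM after 3 days, the last pair above both controls. As log2 ratios of means over control, 1 day of forskolin gave -0.39 in Hoxc, -0.31 in Hoxa, -0.30 in Hoxb and 0.04 in Hoxd. In that order, 4 hours gave -0.30, -0.17, -0.17 and 0.06, and 3 days gave -0.21, -0.13, -0.13 and 0.28. The median log2 fold change of all gene-end peaks was -0.22 at 4 hours, -0.25 at 1 day and -0.16 at 3 days. Over all peaks other than gene-end peaks it was 0.08, 0.11 and 0.07. The cluster sums hold both kinds of peak, so neither median is a matched background for them. An exact permutation test of 2 libraries against 2 cannot go below p = 0.333, and no other test of these sums was run. With library size alone as the scale, the 1 day ratios were -0.24 in Hoxc, -0.16 in Hoxa and -0.14 in Hoxb, the forskolin sums at 3 days overlapped control in Hoxb, and the rosiglitazone ratio was 0.01 in Hoxa and 0.09 in Hoxb, against -0.09 and -0.01 with the main scale. In Hoxd that scale put both libraries of every treatment above control, with ratios of 0.11 with rosiglitazone and 0.16, 0.19 and 0.37 at the 3 forskolin times. Library size alone moves the median log2 fold change of all peaks by 0.10 at 4 hours, 0.15 at 1 day, 0.10 at 3 days and 0.10 with rosiglitazone.

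**Figure D2:**
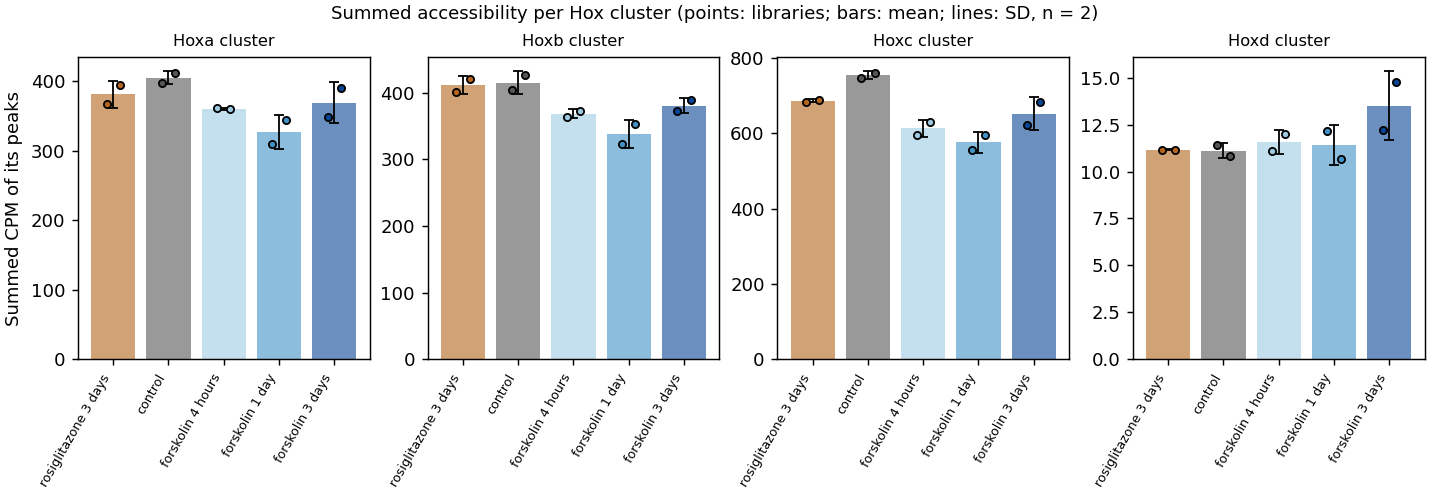
Summed accessibility of the peaks of each Hox cluster in CPM (y axis) in the 5 groups (x axis), with points for libraries, bars for means and lines for SD (n = 2). In the Hoxc panel the control libraries, at 747 and 761 CPM, lie above every treated library, and Hoxd stays between 10.6 and 14.8 CPM.

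Peak by peak, most Hox peaks were not called, and more of those called fell than rose under forskolin. After 4 hours, 24 of 132 tested Hox peaks fell and 6 rose (2 more Hox peaks had too few counts to be tested), while of all peaks tested 12.9% fell and 18.5% rose. After 1 day 28 fell and 1 rose, with 9.84% of all peaks falling and 12.9% rising. After 3 days 11 fell and 1 rose, with 5.34% falling and 8.49% rising. With rosiglitazone 3 fell and 3 rose, with 3.35% falling and 3.22% rising. The median log2 fold change of the Hox peaks was -0.21, -0.26 and -0.10 at the 3 forskolin times and -0.02 with rosiglitazone, and over all peaks it was within 0.04 of 0 in each. The 3 day median was 0.00 and the rosiglitazone median 0.08 with library size alone, a scale on which the medians of all peaks were 0.11 and 0.10. Calls are at a Benjamini-Hochberg adjusted p under 0.05 from edgeR's quasi-likelihood test over all peaks. In each of the 103 calls of Hox peaks over 6 comparisons the libraries of the groups did not overlap. Choosing called peaks makes this likely with 2 libraries per group, so it adds no support to the calls. The share without overlap among all peaks was not counted.

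Gene-end peaks fell more often than other peaks over the whole table, so the counts are also given by position. Of the 51 Hox gene-end peaks, 15 (29.4%) fell at 4 hours, 14 (27.5%) at 1 day and 5 (9.80%) at 3 days, against the 23.3%, 28.7% and 6.94% of all gene-end peaks. No Hox gene-end peak rose against control in any treatment in edgeR with the main scale or in DESeq2, 1 rose at 4 hours with library size alone or with trended offsets, and at an unadjusted p under 0.05 there was 1 at 4 hours, none at 1 day, 1 at 3 days and none with rosiglitazone. Only ends of the assigned gene count here. The peak at chr6:52188908-52189517, higher with rosiglitazone, lies within 1 kb of the Hoxa4 bound at chr6:52189682 but was assigned to Hoxa3. It is counted among the other Hox peaks. Of the 81 other Hox peaks, 9 fell and 6 rose at 4 hours, with 11.4% and 20.5% of all such peaks doing so. All gene-end peaks rose in 5.44%, 3.69% and 2.62% of cases at the 3 forskolin times. At 1 day 14 of the 81 (17.3%) fell, with 6.97% of all such peaks, and 1 rose, with 14.3%. At 3 days 6 of the 81 fell and 1 rose, with 5.10% and 9.39% of all such peaks. With rosiglitazone 1 Hox gene-end peak fell, with 3.71% of all gene-end peaks falling and 1.50% rising. Of the other Hox peaks 2 fell and 3 rose with rosiglitazone, with 3.29% and 3.48% of all such peaks. By cluster, 13 of 52 Hoxc peaks fell at 4 hours, 14 at 1 day and 9 at 3 days. In Hoxa the counts were 6, 5 and 0 of 34 and in Hoxb 5, 9 and 2 of 40. For Hoxa at 3 days the unadjusted count was 2 and DESeq2 called none. In Hoxd none of 6 peaks was called against control by edgeR or DESeq2, and at an unadjusted p under 0.05 there was 1, at 3 days. By zone at 4 hours, the anterior genes (1 to 3) had 1 fallen (2.86%) and 5 risen (14.3%) peaks of 35. The middle genes (4 to 8) had 11 fallen (28.9%) of 38, and the posterior genes (9 to 13) 12 fallen (20.3%) and 1 risen (1.69%) of 59. Of all peaks 12.9% fell and 18.5% rose. The risen anterior peaks lay inside the Hoxa3 bounds, which also hold Hoxa4, Hoxa5 and Hoxa6, or 31802 to 36814 bp from Hoxb1. The zones thus rest on the rule that assigns peaks to genes. A smaller part of the anterior peaks than of the middle or posterior peaks were gene-end peaks. At 4 hours 23.3% of all gene-end peaks fell and 5.44% rose, against 11.4% and 20.5% of all other peaks. The zones were not compared at matched position, so the part of position in their difference was not tested. At 1 day the anterior genes had 4 fallen and 1 risen, the middle genes 10 fallen and the posterior genes 14 fallen, and at 3 days these were 1 fallen and 1 risen, 4 fallen and 6 fallen. Of all peaks 9.84% fell and 12.9% rose at 1 day, and 5.34% fell and 8.49% rose at 3 days.

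**Figure D3:**
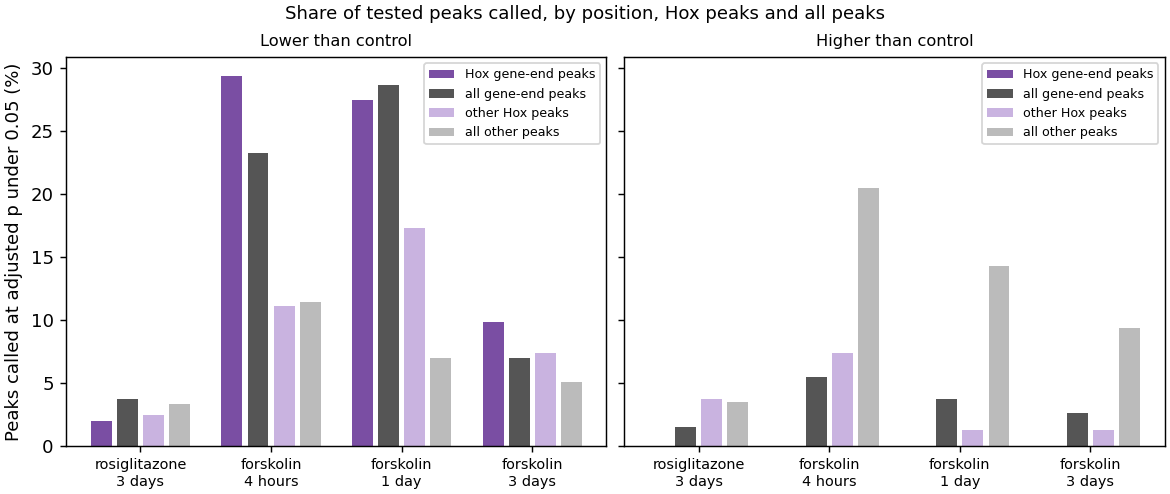
Percent of tested peaks called lower (left) and higher (right) than control (y axis) for 4 treatments (x axis), for Hox gene-end peaks, all gene-end peaks, other Hox peaks and all other peaks. At 1 day of forskolin 27.5% of Hox gene-end peaks and 28.7% of all gene-end peaks were lower. No Hox peak at an end of its assigned gene was higher in any treatment with the main scale (1 was at 4 hours with library size alone or trended offsets).

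The scale and single libraries moved these counts. With library size alone, 15 Hox peaks fell and 9 rose at 4 hours, 20 and 4 at 1 day, 6 and 3 at 3 days, and 1 and 4 with rosiglitazone. That scale moved the whole table, with all-peak median log2 fold changes of 0.10, 0.19, 0.11 and 0.10 in that order. The shares of all peaks called on it are not given here, so these counts have no background beside them. With offsets trended on peak level, which remove a shift shared by high peaks, 1 fell and 3 rose with rosiglitazone, and 11, 13 and 3 of the 51 Hox gene-end peaks (21.6%, 25.5% and 5.88%) fell at the 3 forskolin times, against 11.4%, 9.86% and 3.27% of all gene-end peaks. The 30 calls at 4 hours became 14 without S2 and 15 without S3, and the 29 at 1 day became 18 without S2 and 13 without S5. The 12 at 3 days became 7 without S1, 6 without S2 and 6 without S7, and the 6 with rosiglitazone became 3 without S1 or S9. S1 and S2 are control libraries, S3 and S4 had 4 hours, S5 and S6 1 day and S7 and S8 3 days of forskolin, and S9 and S10 had rosiglitazone.

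A loss called at all 3 forskolin times in every alternative lay in the Hoxc cluster between Hoxc11 and Hoxc10. A peak 3647 bp from Hoxc11 at chr15:102959813-102960884 had 19.2 and 22.3 CPM with rosiglitazone, 30.5 and 27.4 CPM in control, 12.95 and 15.0 CPM after 4 hours of forskolin, 13.2 and 12.1 CPM after 1 day and 14.5 and 14.8 CPM after 3 days. All 6 forskolin libraries lay below both rosiglitazone libraries, and these below both controls. Hoxc11 and Hoxc10 are posterior genes known for limb and hindbody patterning. The log2 fold change over control was -1.05 (SE 0.14, adjusted p = 6.56e-09) at 4 hours, -1.19 (SE 0.14, adjusted p = 3.64e-10) at 1 day and -0.98 (SE 0.14, adjusted p = 2.19e-07) at 3 days. With rosiglitazone it was -0.48 (SE 0.14, adjusted p = 0.0192), a call lost without S1 (adjusted p = 0.179), without S9 (adjusted p = 0.239), with library size alone (adjusted p = 0.0788) and in DESeq2 (adjusted p = 0.0595). Forskolin against rosiglitazone at 3 days gave -0.51 (SE 0.14, adjusted p = 0.00508), lost without S10 (adjusted p = 0.130).

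The gene-end peak of Hoxc5 beside Mir615 fell at all 3 forskolin times, and at 3 days it was lower with forskolin than with rosiglitazone. Hoxc5 is a gene of the middle group. The peak at chr15:103014091-103014801 had 19.7 and 21.7 CPM with rosiglitazone, 22.0 and 22.3 CPM in control, 14.3 and 15.2 CPM after 4 hours of forskolin, 11.6 and 16.1 CPM after 1 day and 12.6 and 13.6 CPM after 3 days. No forskolin library exceeded 16.1 CPM, and no other library was under 19.7 CPM. Against control the log2 fold change was -0.59 (SE 0.15, adjusted p = 0.00119) at 4 hours, -0.68 (SE 0.15, adjusted p = 0.000298) at 1 day and -0.76 (SE 0.15, adjusted p = 0.000139) at 3 days, and with rosiglitazone -0.10 (SE 0.14, adjusted p = 0.762). At 3 days forskolin against rosiglitazone gave -0.66 (SE 0.15, adjusted p = 0.000373). The call at 1 day was lost without S5 (adjusted p = 0.0687).

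**Figure D4:**
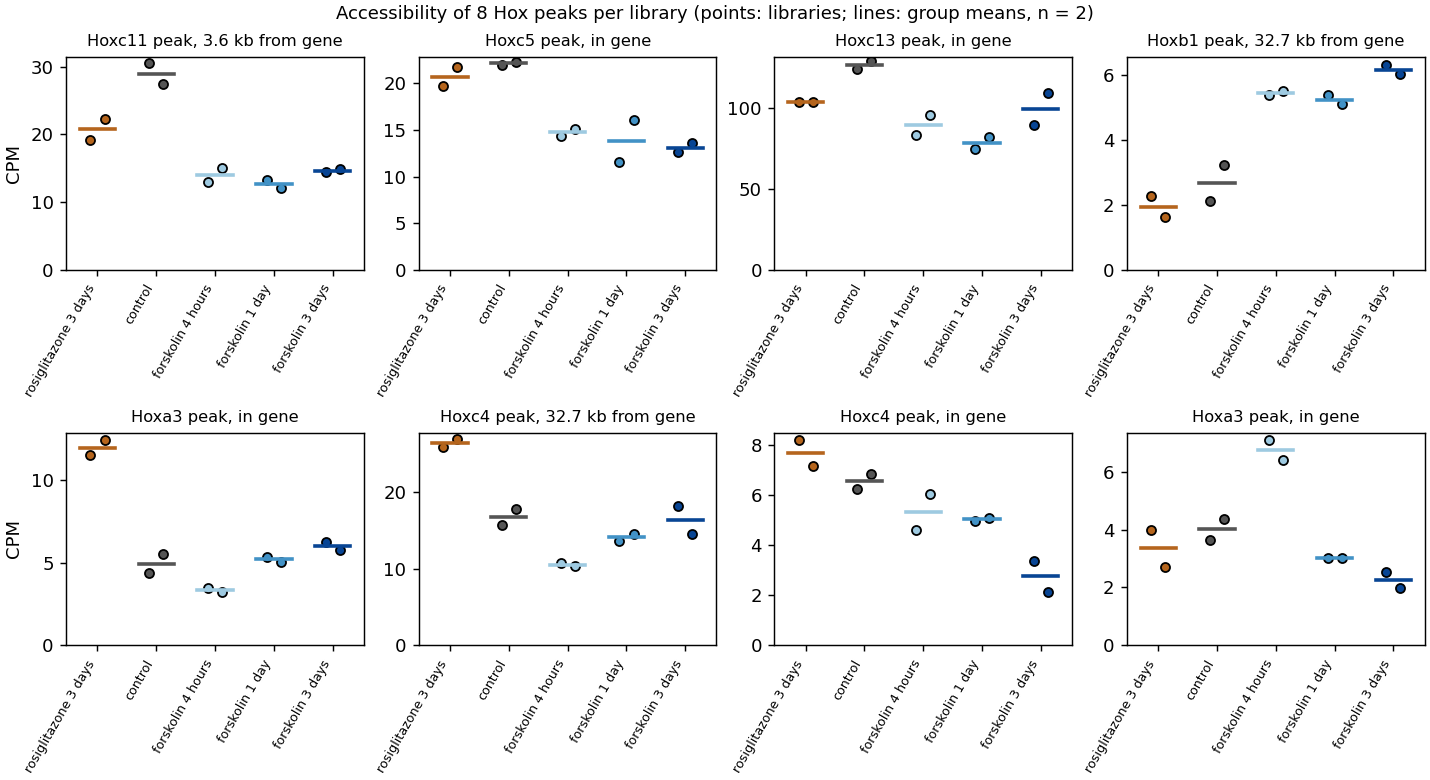
Accessibility in CPM (y axis) of 8 Hox peaks in the libraries of 5 groups (x axis), with points for libraries and lines for group means (n = 2). The Hoxc11 peak falls to 15.0 CPM or less in all 6 forskolin libraries, and the Hoxa3 peak at the lower left has 11.5 and 12.4 CPM with rosiglitazone, above its other 8 libraries.

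Other Hoxc peaks were lower after forskolin. A peak 1692 bp from Hoxc12, at chr15:102934899-102935369, had 13.8 and 14.4 CPM with rosiglitazone, 14.2 and 12.97 CPM in control, 7.30 and 8.15 CPM after 4 hours of forskolin, 7.32 and 8.15 CPM after 1 day and 9.67 and 9.50 CPM after 3 days. The rosiglitazone and control libraries overlapped at 12.97 to 14.4 CPM, and no forskolin library exceeded 9.67 CPM. Its log2 fold change was -0.81 (SE 0.18, adjusted p = 0.000180) at 4 hours and -0.81 (SE 0.17, adjusted p = 0.000260) at 1 day. At 3 days it was -0.50 (SE 0.17, adjusted p = 0.0397), which was lost without any 1 of S1, S2, S7 and S8 (adjusted p from 0.0862 to 0.188). The Hoxc13 gene-end peak, the most accessible of all Hox peaks per kb, had 103 and 104 CPM with rosiglitazone, 124 and 129 CPM in control, 83.2 and 95.3 CPM after 4 hours of forskolin, 74.2 and 81.6 CPM after 1 day and 89.5 and 109 CPM after 3 days. Hoxc13 is known for its part in hair and nail formation. Its log2 fold change was -0.50 (SE 0.12, adjusted p = 0.000479) at 4 hours, lost without S3 (adjusted p = 0.0557) and with trended offsets (adjusted p = 0.0669). At 1 day it was -0.69 (SE 0.12, adjusted p = 3.73e-06). At 3 days it was -0.35 (SE 0.12, adjusted p = 0.0312), lost without S1, S2 or S7 (adjusted p = 0.0944, 0.193 and 0.245) and with trended offsets (adjusted p = 0.403). A peak inside Hoxc6 at chr15:103007359-103007586, chosen after its values were seen, gave -1.20 (SE 0.27, adjusted p = 0.000243) at 4 hours and -1.11 (SE 0.26, adjusted p = 0.000745) at 1 day. A peak inside Hoxc9 at chr15:102977241-102977660 gave -0.65 (SE 0.18), -0.78 (SE 0.18) and -0.64 (SE 0.19) at the 3 forskolin times, each lost without S2 (adjusted p = 0.127, 0.0642 and 0.219) and once more each without S3, S6 and S7. The 2 most accessible Hoxc6 gene-end peaks gave -0.50 (SE 0.16) and -0.43 (SE 0.12) at 1 day, both lost without S5 (adjusted p = 0.199 and 0.119), the first also without S2 (adjusted p = 0.133) and with library size alone (adjusted p = 0.114), the second also with trended offsets (adjusted p = 0.449).

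Some Hoxc peaks moved the other way or differed between the drugs. A peak 32702 bp from Hoxc4, at chr15:103069152-103069964, had 25.8 and 26.9 CPM with rosiglitazone, 15.6 and 17.8 CPM in control, 10.7 and 10.3 CPM after 4 hours of forskolin, 13.6 and 14.5 CPM after 1 day and 18.2 and 14.5 CPM after 3 days. Its rosiglitazone libraries were the highest and its 4 hour libraries the lowest, with control, 1 day and 3 days between. The log2 fold change over control was 0.65 (SE 0.14, adjusted p = 0.00128) with rosiglitazone and -0.67 (SE 0.15, adjusted p = 0.000400) after 4 hours of forskolin. The 3 day value over control was -0.03 (SE 0.15, adjusted p = 0.930), and the 3 day against 4 hour value was 0.64 (SE 0.15, adjusted p = 0.00170), lost without S7 (adjusted p = 0.0908). Forskolin against rosiglitazone at 3 days gave -0.68 (SE 0.14, adjusted p = 0.000100). A peak within the Hoxc4 bounds at chr15:103032707-103033322, chosen after its values were seen, was lowest late: it had 8.19 and 7.16 CPM with rosiglitazone, 6.26 and 6.85 CPM in control, 4.60 and 6.04 CPM after 4 hours of forskolin, 4.97 and 5.09 CPM after 1 day and 3.36 and 2.14 CPM after 3 days. At 3 days the log2 fold change was -1.23 (SE 0.26, adjusted p = 0.000416) over control and -1.45 (SE 0.25, adjusted p = 4.73e-06) over rosiglitazone.

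Within Hoxc13, a low peak at chr15:102926322-102926488, also chosen after its values were seen, rose after 4 hours of forskolin, where it had 5.13 and 4.47 CPM, against 1.82 and 1.73 CPM in control. The log2 fold change was 1.43 (SE 0.34, adjusted p = 0.000531). A peak 16049 bp from Hoxc13 at chr15:102904855-102905309, likewise chosen after its values were seen, had 10.3 and 7.47 CPM with rosiglitazone, against 4.24 and 3.14 CPM in control. Its log2 fold change was 1.28 (SE 0.26, adjusted p = 0.000419), lost without S9 (adjusted p = 0.0510).

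In the Hoxa cluster, peaks higher in treated cells than in control lay inside the Hoxa3 bounds, which hold Hoxa4, Hoxa5 and Hoxa6 as well. Hoxa3 is an anterior gene needed for pharyngeal organs. The peak at chr6:52188908-52189517 had 11.5 and 12.4 CPM with rosiglitazone, 4.34 and 5.53 CPM in control, 3.48 and 3.20 CPM after 4 hours of forskolin, 5.36 and 5.04 CPM after 1 day and 6.25 and 5.78 CPM after 3 days. This peak lies within 1 kb of the Hoxa4 bound at chr6:52189682, and the rule gave it to Hoxa3. Both rosiglitazone libraries stood above every other library. The log2 fold change was 1.26 (SE 0.22, adjusted p = 3.35e-05) with rosiglitazone over control and -0.99 (SE 0.20, adjusted p = 0.000139) for forskolin over rosiglitazone at 3 days. After 4 hours of forskolin it was -0.57 (SE 0.25, adjusted p = 0.0687). A neighbour at chr6:52185108-52185734 rose at 4 hours, with 18.2 and 15.2 CPM against 9.59 and 10.8 CPM in control and a log2 fold change of 0.70 (SE 0.16, adjusted p = 0.000445). A second neighbour at chr6:52183780-52184130, chosen after its values were seen, had 3.99 and 2.72 CPM with rosiglitazone, 3.63 and 4.38 CPM in control, 7.10 and 6.40 CPM after 4 hours of forskolin, 3.02 and 3.00 CPM after 1 day and 2.54 and 1.98 CPM after 3 days. Its 4 hour libraries were the highest and its 3 day libraries the lowest, and 3 days against 4 hours gave -1.56 (SE 0.28, adjusted p = 3.40e-05). Its 4 hour value over control, 0.74 (SE 0.27, adjusted p = 0.0262), was lost without any 1 of S1, S2, S3 and S4 (adjusted p from 0.0566 to 0.152).

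Other Hoxa peaks were lower after forskolin. The peak over the Hoxa3 window printed above, at chr6:52212602-52213537, had 31.7 and 39.3 CPM with rosiglitazone, 42.1 and 43.8 CPM in control, 31.8 and 33.0 CPM after 4 hours of forskolin, 27.7 and 29.9 CPM after 1 day and 34.2 and 41.6 CPM after 3 days. Its 1 day libraries were the lowest and its control libraries the highest. The log2 fold change was -0.41 (SE 0.13, adjusted p = 0.00964) at 4 hours, lost without S2 (adjusted p = 0.0859), without S3 (adjusted p = 0.0918) and with trended offsets (adjusted p = 0.0627). At 1 day it was -0.58 (SE 0.13, adjusted p = 0.000377). A peak inside Hoxa10 at chr6:52233425-52234650 gave -0.46 (SE 0.13, adjusted p = 0.00517) at 4 hours and -0.64 (SE 0.13, adjusted p = 0.000167) at 1 day, the second lost without S5 (adjusted p = 0.0525). Hoxa10 is a posterior gene known in limb and uterine development. At 1 day a peak 477 bp from Hoxa10 gave -0.68 (SE 0.18) and one inside the Hoxa3 bounds at chr6:52191819-52192425 gave -0.64 (SE 0.18), both lost without S5 (adjusted p = 0.104 and 0.118), the first also without S2 (adjusted p = 0.0549) and the second without S1 (adjusted p = 0.152). The second peak lies within 1 kb of the Hoxa4 bound at chr6:52191703, and the rule gave it to Hoxa3.

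In the Hoxb cluster, losses lay around Hoxb6 and Hoxb9, near Hoxb13 and beyond Hoxb1, and gains also lay beyond Hoxb1. The peak 383 bp from Hoxb6 at chr11:96301753-96302152 had 16.9 and 19.1 CPM with rosiglitazone, 16.2 and 15.2 CPM in control, 9.53 and 7.67 CPM after 4 hours of forskolin, 9.44 and 10.8 CPM after 1 day and 11.8 and 13.8 CPM after 3 days. The 6 forskolin libraries were the lowest and the rosiglitazone libraries the highest. Against control it gave -0.87 (SE 0.17, adjusted p = 2.52e-05) at 4 hours and -0.63 (SE 0.16, adjusted p = 0.00233) at 1 day, the second lost without S5 (adjusted p = 0.0630). At 1 day a second Hoxb6 peak at chr11:96292044-96292576 gave -0.83 (SE 0.20, adjusted p = 0.00125) and the peak 9656 bp from Hoxb9 gave -0.63 (SE 0.14, adjusted p = 0.000456). The peak 130 bp from Hoxb8 gave -0.62 (SE 0.16) at 1 day, lost without S2 or S6 (adjusted p = 0.347 and 0.0551). A peak 32710 bp from Hoxb1 at chr11:96400768-96401161, chosen after its values were seen, had 2.27 and 1.60 CPM with rosiglitazone, 2.12 and 3.22 CPM in control, 5.39 and 5.49 CPM after 4 hours of forskolin, 5.36 and 5.09 CPM after 1 day and 6.31 and 6.01 CPM after 3 days. Every forskolin library lay above every other library. Forskolin against rosiglitazone at 3 days gave 1.68 (SE 0.28, adjusted p = 2.59e-06). Against control the values were 1.01 (SE 0.28, adjusted p = 0.00377), 0.95 (SE 0.28, adjusted p = 0.00848) and 1.19 (SE 0.28, adjusted p = 0.00155) at 4 hours, 1 day and 3 days, and without S1 the adjusted p was 0.0821, 0.135 and 0.0567. Without S5 the 1 day value had an adjusted p of 0.0605. Its neighbours 31802 and 36814 bp from Hoxb1 rose at 4 hours, with log2 fold changes of 0.55 (SE 0.21) and 1.90 (SE 0.56), the first lost without any 1 of S1, S2, S3 and S4 (adjusted p from 0.0847 to 0.165) and the second without S2 or S3 (adjusted p = 0.247 and 0.170). The second is a low peak chosen after its values were seen, with 3.48 and 1.81 CPM at 4 hours, against 1.31 and 0.165 CPM in control. Farther out, the peak 45618 bp from Hoxb1 had 29.8 and 29.6 CPM with rosiglitazone, 34.3 and 32.5 CPM in control, 28.5 and 27.6 CPM after 4 hours of forskolin, 24.2 and 26.3 CPM after 1 day and 24.3 and 26.3 CPM after 3 days. Both controls were its highest libraries. It gave -0.40 (SE 0.13, adjusted p = 0.0137) at 1 day and -0.40 (SE 0.13, adjusted p = 0.0242) at 3 days, values of -0.25 (adjusted p = 0.120) and -0.30 (adjusted p = 0.0763) when scaled by library size, and both were lost without S1 or S2 (adjusted p from 0.0543 to 0.138), the first also without S5 (adjusted p = 0.154) and the second without S7 (adjusted p = 0.137). A low peak 39110 bp from Hoxb1 gave -1.81 (SE 0.52) at 1 day, lost without S6 (adjusted p = 0.0907). Near Hoxb13, a low peak 397 bp away gave -1.40 (SE 0.40) at 1 day, lost without S1 or S5 (adjusted p = 0.0893 and 0.179), and one 31078 bp away gave -2.17 (SE 0.78) at 4 hours, lost without S1 or S4 (adjusted p = 0.340 and 0.191). The low peaks 39110 bp from Hoxb1 and 397 and 31078 bp from Hoxb13 were also chosen after their values were seen.

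**Figure D5:**
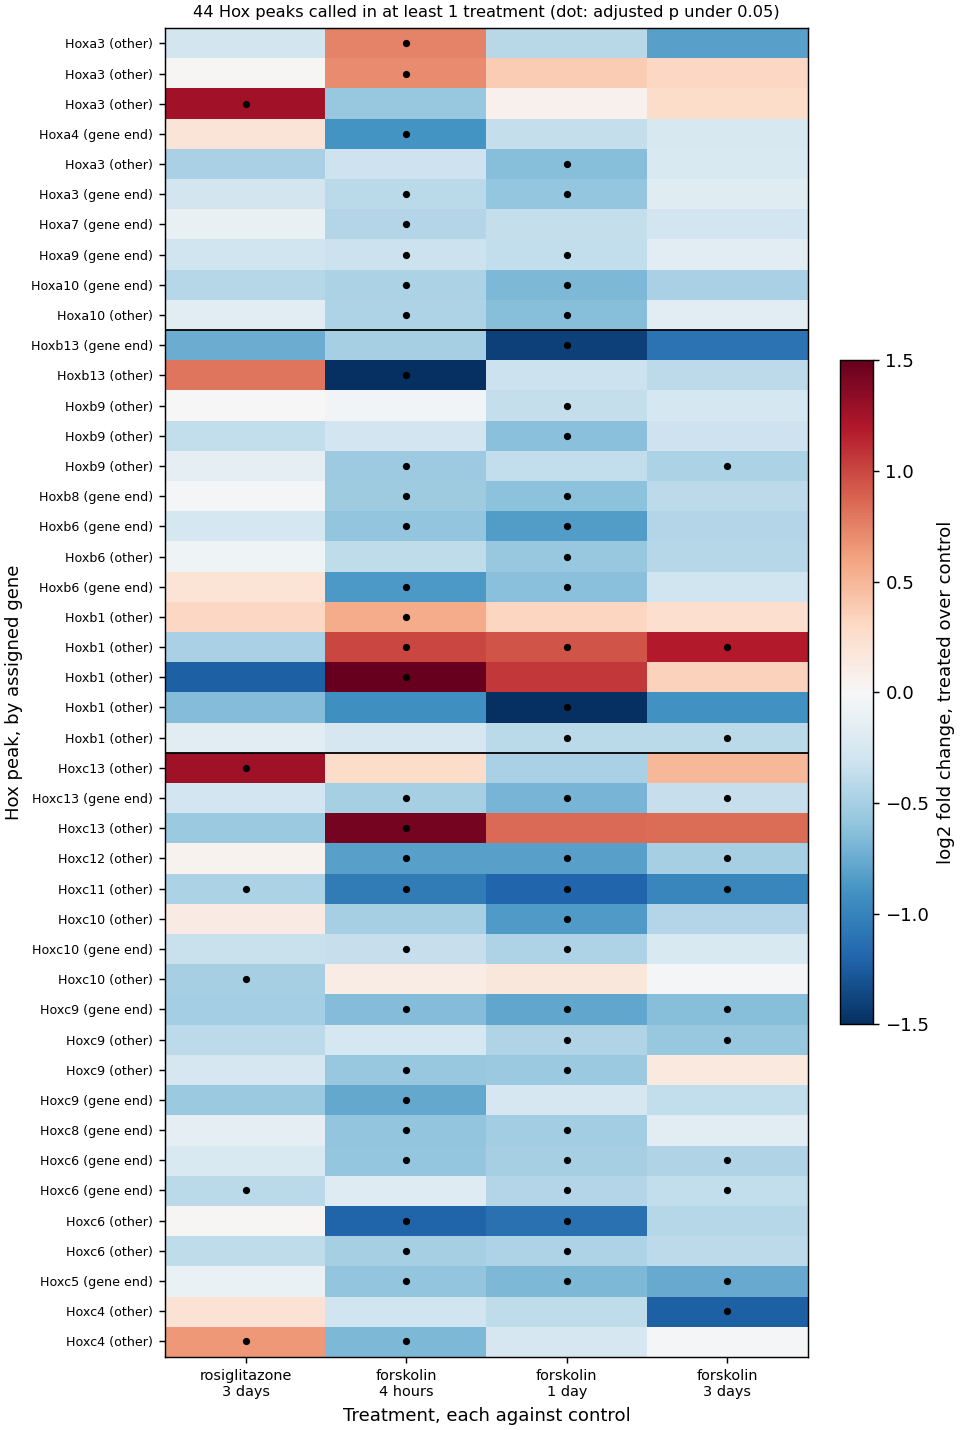
Log2 fold change over control (colour, red higher and blue lower in treated cells) of the 44 Hox peaks called in at least 1 treatment, by cluster and position down the page, for 4 treatments across, with a dot for an adjusted p under 0.05. Most Hoxc peaks are blue under forskolin, and the Hoxa3 peak called with rosiglitazone at 1.26 is blue after 4 hours of forskolin at -0.57.

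Forskolin and rosiglitazone were set against each other at 3 days, the time they share. Of 132 Hox peaks, 11 were lower with forskolin and 5 higher, while 8.82% of all peaks were lower and 12.9% higher. Hoxc held 8 of the 11. Besides the peaks above, a peak 24971 bp from Hoxc13 at chr15:102895791-102896530, chosen after its values were seen, gave -1.14 (SE 0.24, adjusted p = 0.000226), with 4.48 and 2.85 CPM under forskolin, against 8.26 and 8.21 CPM under rosiglitazone. The only call in Hoxd was the Hoxd8 gene-end peak at chr2:74705159-74705613, with 2.71 and 4.27 CPM under forskolin, against 1.58 and 1.79 CPM under rosiglitazone. Its log2 fold change of 1.03 (SE 0.38, adjusted p = 0.0388) was lost without S8 (adjusted p = 0.325), S9 (adjusted p = 0.158) or S10 (adjusted p = 0.113), and in DESeq2 (adjusted p = 0.122). Without S10 the 16 calls became 9.

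Between 3 days and 4 hours of forskolin, 6 Hox peaks were higher and 4 lower at 3 days, with 4.38% of all peaks higher and 6.75% lower. These 10 became 4 without S3, 5 without S4 and 6 without S8. Hoxb7, a middle gene, was the 1 Hox gene called, with 15.0 and 17.3 CPM with rosiglitazone, 17.1 and 15.7 CPM in control, 13.02 and 13.8 CPM after 4 hours of forskolin, 13.5 and 14.7 CPM after 1 day and 17.6 and 18.5 CPM after 3 days. Its value for 3 days over 4 hours was 0.43 (SE 0.13, adjusted p = 0.0466), lost without any 1 of S3, S4, S7 and S8 (adjusted p from 0.0505 to 0.275), while 3.95% of all genes were higher and 5.29% lower.

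Summed over the peaks assigned to each gene, 12 of 33 Hox genes fell and 0 rose after 4 hours of forskolin, with 22.0% of all genes falling and 12.8% rising. After 1 day 15 fell and 0 rose, with 27.3% and 9.93% of all genes, and after 3 days 3 fell and 0 rose, with 9.37% and 5.64%. At an unadjusted p under 0.05 in edgeR, 0, 0 and 1 Hox genes rose at these times. DESeq2 was not run on genes. The median log2 fold change of the Hox genes was -0.17, -0.32 and -0.12 at the 3 times, against -0.11, -0.12 and -0.08 over all genes. The 12 genes at 4 hours became 6 without S1 and 5 without S2 or S3, the 15 at 1 day became 7 without S5, and the 3 at 3 days became 10 without S8.

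Hoxc5 and Hoxc11 fell at all 3 forskolin times. Hoxc5, which has the 1 peak described above, gave -0.58, -0.67 and -0.75 (SE 0.15, adjusted p = 0.00222) at 4 hours, 1 day and 3 days. Hoxc11 at chr15:102954526-102956701 gave -0.45 (SE 0.10, adjusted p = 0.00124), -0.70 (SE 0.10, adjusted p = 3.11e-05) and -0.50 (SE 0.10, adjusted p = 0.00198). Its gene-end peaks alone, which leave out the peak on the Hoxc10 side, gave 0.19 at 4 hours (adjusted p = 0.553), -0.15 at 1 day (adjusted p = 0.621) and -0.01 at 3 days (adjusted p = 0.982). Hoxc13 gave -0.39 (SE 0.08, adjusted p = 0.000452) at 4 hours, -0.57 (SE 0.08, adjusted p = 1.99e-05) at 1 day and -0.26 (SE 0.08, adjusted p = 0.0257) at 3 days, the last lost without S1 (adjusted p = 0.0749), S2 (adjusted p = 0.177) or S7 (adjusted p = 0.198). Scaled by library size the 3 day value was -0.16 (adjusted p = 0.0951), with trended offsets -0.16 (adjusted p = 0.101), and from gene-end peaks alone its adjusted p was 0.0580. Hoxc9, a posterior gene used as a marker of white subcutaneous fat, had 69.1 and 66.2 CPM with rosiglitazone, 81.9 and 87.7 CPM in control, 62.8 and 65.3 CPM after 4 hours of forskolin, 62.6 and 63.5 CPM after 1 day and 67.7 and 74.8 CPM after 3 days. Against control it gave -0.40 (SE 0.08, adjusted p = 0.00119) at 4 hours and -0.42 (SE 0.08, adjusted p = 0.000742) at 1 day, and -0.25 (SE 0.08, adjusted p = 0.0530) at 3 days.

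The other genes called against control at 4 hours were Hoxa4, Hoxa7, Hoxa10, Hoxb6, Hoxb8, Hoxc6, Hoxc10 and Hoxc12, with log2 fold changes from -0.89 (Hoxa4) to -0.23 (Hoxc12). The Hoxa4 value rests on the 1 peak assigned to it, of 3 within 1 kb of its ends. At 1 day they were Hoxa3, Hoxa9, Hoxa10, Hoxb2, Hoxb6, Hoxb8, Hoxb9, Hoxc6, Hoxc8, Hoxc10 and Hoxc12, from -0.52 (Hoxb8) to -0.28 (Hoxc6). Hoxc8 had 55.3 and 61.9 CPM with rosiglitazone, 55.7 and 63.5 CPM in control, 51.6 and 54.5 CPM after 4 hours of forskolin, 45.0 and 48.0 CPM after 1 day and 53.0 and 59.6 CPM after 3 days, and Hoxc10 had 88.5 and 85.3 CPM with rosiglitazone, 99.6 and 99.4 CPM in control, 79.2 and 88.5 CPM after 4 hours of forskolin, 77.8 and 80.2 CPM after 1 day and 79.8 and 95.3 CPM after 3 days. In Hoxc8 the 1 day libraries were below both controls, with a log2 fold change of -0.36 (SE 0.10, adjusted p = 0.00723). Hoxc10, reported to restrain browning in subcutaneous fat, gave -0.24 (SE 0.09, adjusted p = 0.0384) at 4 hours and -0.33 (SE 0.09, adjusted p = 0.00622) at 1 day. The Hoxc8 call at 1 day was lost without S2 or S5 and the Hoxc10 call at 4 hours without S1, S2 or S3, with adjusted p of 0.141, 0.0837, 0.124, 0.139 and 0.318 in that order. Without S5 the Hoxc10 call at 1 day was lost too (adjusted p = 0.0669). Hoxb4, a middle gene used to expand blood stem cells, had 30.2 and 33.1 CPM with rosiglitazone, 28.6 and 31.9 CPM in control, 29.7 and 29.6 CPM after 4 hours of forskolin, 24.4 and 28.0 CPM after 1 day and 28.7 and 33.8 CPM after 3 days. Its 1 day libraries lay below both controls, the other groups overlapped control, and it was not called in any comparison. Hoxa9, a posterior gene active in blood progenitors, gave -0.33 (SE 0.09, adjusted p = 0.00601) at 1 day, lost without S2 or S5 (adjusted p = 0.164 and 0.0533). Hoxd8, a middle gene of the low Hoxd cluster, gave 0.91 (SE 0.40, adjusted p = 0.127) at 3 days. The Hoxc6 call at 1 day was lost without S5 (adjusted p = 0.0524). The 1 day calls of Hoxa3, Hoxa9, Hoxb2, Hoxc6, Hoxc8, Hoxc10 and Hoxc12 and the 4 hour calls of Hoxa7, Hoxc6, Hoxc10 and Hoxc12 were lost under either other scale (library size alone or trended offsets). With gene-end peaks only, the 4 hour calls of Hoxa4, Hoxa7, Hoxa10, Hoxb8, Hoxc6, Hoxc9, Hoxc10, Hoxc11 and Hoxc12 were lost. So were the 1 day calls of Hoxa9, Hoxa10, Hoxb2, Hoxb9, Hoxc8, Hoxc9, Hoxc11 and Hoxc12. The Hoxc12 call at 4 hours was lost in all 8 alternatives, the Hoxa7 call at 4 hours and the Hoxb2 call at 1 day in 7 of 8, and the Hoxa4 call at 4 hours in 6 of 8, among them each that left out 1 library.

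With rosiglitazone Hoxc4 rose and Hoxc6 and Hoxc9 fell, with 2.41% of all genes rising and 6.31% falling. Hoxc4 gave 0.34 (SE 0.09, adjusted p = 0.0241), Hoxc6 gave -0.26 (SE 0.07, adjusted p = 0.0150) and Hoxc9 gave -0.34 (SE 0.08, adjusted p = 0.0150). With peaks within 10 kb only, which drops the distal peak described above, Hoxc4 gave 0.03 (adjusted p = 0.916). Hoxc6 gave -0.16 scaled by library size (adjusted p = 0.0907) and -0.15 with trended offsets (adjusted p = 0.105). The 3 calls became 1 without S1 and 0 without S2, S9 or S10. At 3 days, forskolin over rosiglitazone gave -0.64 (SE 0.15, adjusted p = 0.00364) for Hoxc5 and -0.31 (SE 0.09, adjusted p = 0.0201) for Hoxc4, the only 2 Hox genes called, with 7.21% of all genes lower and 9.55% higher. These 2 became 1 without S9 and 0 without S10, and the Hoxc4 call was also lost without S8 (adjusted p = 0.0545).

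Genes that act with or on the Hox clusters were counted by lists, at an adjusted p under 0.05 over all genes in edgeR's quasi-likelihood test. Of 27 Polycomb genes, which encode the repressors of Hox clusters, 13 fell at 4 hours, 19 at 1 day, 5 at 3 days and 4 with rosiglitazone, and none rose, with 1 rise at an unadjusted p under 0.05, with rosiglitazone. With library size alone 9, 12, 2 and 1 of them fell, and 1 rose at 4 hours, 1 at 1 day and 1 with rosiglitazone. Jarid2, a Polycomb cofactor, gave -0.64 (SE 0.08, adjusted p = 3.64e-05) at 1 day. Of 11 trithorax and H3K27 demethylase genes, 5, 8 and 1 fell at the forskolin times and 1 fell with rosiglitazone, while library size alone gave falls in 3, 7, 0 and 1 and a rise in 1 at each forskolin time. Ash1l, a trithorax methyltransferase, rose at 4 hours, 0.57 (SE 0.11, adjusted p = 0.000305), and at 1 day, 0.40 (SE 0.11, adjusted p = 0.00527), the second lost without S2 (adjusted p = 0.0579). Of 9 DNA-binding partners of Hox proteins (PBX, MEIS and PKNOX genes), 3 fell and 1 rose at 4 hours, 4 fell and 2 rose at 1 day, 1 fell and 1 rose at 3 days, and 1 rose with rosiglitazone. Scaled by library size, 2 fell and 2 rose at 4 hours, 1 fell and 3 rose at 1 day, and 1 rose both at 3 days and with rosiglitazone, so the balance at 1 day turned toward rises. Pbx4 gave 0.50 (SE 0.08, adjusted p = 0.000270) at 3 days of forskolin, while its gene-end peaks alone gave -0.07 (adjusted p = 0.853). Jarid2, Ash1l and Pbx4 were chosen after their values were seen. Of 11 retinoid and caudal genes, which set Hox domains in the embryo, 2 fell and 1 rose at 4 hours, 1 fell at 1 day, 1 rose at 3 days, and 2 fell with rosiglitazone. Scaled by library size, 2 fell and 3 rose at 4 hours, 1 fell and 3 rose at 1 day, 4 rose at 3 days and 1 fell with rosiglitazone, so the balance at 4 hours and 1 day turned toward rises. Of 9 genes that flank the clusters and had a peak, 2 fell and 1 rose at 4 hours, 3 fell at 1 day, and 1 fell and 1 rose at 3 days, while by library size 2 rose at 4 hours with no fall, 2 fell and 1 rose at 1 day, and 1 fell and 1 rose at 3 days. Of 7 patterning genes of fat depots with a peak (Tbx5 had none), 4 fell at 4 hours, 4 at 1 day, 1 at 3 days and 1 with rosiglitazone, against 2, 0, 0 and 0 with library size alone. The main-scale counts stand beside the shares of all genes given above, and no such shares are given for library size alone.

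The libraries held between 10410233 and 18935287 counts. All 10 adipocyte, 8 progenitor, 5 endothelial and 4 neuron markers had peaks. The summed adipocyte markers ran from 1415 to 1435 CPM with rosiglitazone, 1136 to 1249 CPM in control, 1053 to 1130 CPM at 4 hours, 986 to 986 CPM at 1 day and 1015 to 1074 CPM at 3 days, and 3, 7 and 5 of the 10 genes fell at the forskolin times, 1 (Fabp4) rose at 4 hours, and 3 rose and 1 fell with rosiglitazone. Scaled by library size, 3, 4 and 3 of them fell at the forskolin times, 3 rose at 4 hours, and 5 rose and 1 fell with rosiglitazone. Of 6 macrophage markers 5 had peaks, with none for Adgre1, and their sum was 95.0 to 96.1 CPM with rosiglitazone, 69.7 to 76.5 CPM in control, 100.3 to 100.9 CPM at 4 hours, 81.0 to 89.6 CPM at 1 day and 86.1 to 87.8 CPM at 3 days, with 3, 1 and 1 of the 5 rising at the forskolin times and 2 with rosiglitazone (4, 3, 3 and 3 by library size). The 5 endothelial markers summed to 124 to 129.7 CPM with rosiglitazone, 137 to 141 CPM in control, 161 to 176 CPM at 4 hours, 143 to 153 CPM at 1 day and 148 to 153 CPM at 3 days, with 3, 2 and 1 rising at the forskolin times (3 at each by library size) and 1, Pecam1, falling at 1 day. The 8 progenitor markers summed to 314 to 329 CPM with rosiglitazone, 329 to 343 CPM in control and 317 to 342 CPM over the forskolin libraries. Of them Cd34 fell at 4 hours and Ly6a fell with rosiglitazone. By library size none fell and 1 rose at 4 hours, 1 rose at 1 day and 1 fell with rosiglitazone. The 4 neuron markers summed to 208 to 226 CPM over all libraries, and Rbfox3 rose at 4 hours (2 rose at each forskolin time by library size). Of 4 muscle markers Myod1 and Myf5 had no peak, and Pax7 rose at all 3 forskolin times. Of all genes, 12.8%, 9.93% and 5.64% rose and 22.0%, 27.3% and 9.37% fell at the forskolin times on the main scale. With rosiglitazone 2.41% rose and 6.31% fell. No such shares are given for library size alone. The part of the marker shifts in the Hox results was not tested.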

How the data were processed

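ATAC-seq counts per peak came from 1 table of 10 libraries deposited by the authors, with whole-number counts that were not normalized. The submitters' processing notes list Bowtie2, fastp, featureCounts, MACS2, Picard, SAMtools and deepTools, with mm10 and GRCm38 as builds. Not given in the sources used here are whether peak calling pooled the libraries, what was done with duplicates, and any shift for the transposase. All value columns were used (0 left out). Totals ran from 10410233 to 18935287 counts in peaks, and intervals and tests rest on 2 libraries per group. Nothing in the labels says that the libraries came from separate cultures, so p-values measure the spread between these libraries only.

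A peak was assigned by its midpoint to the shortest protein-coding gene of RefSeq (GRCm38.p6) holding it, and a peak outside genes to the gene whose end was closest, up to 50 kb away. The gene table used has no strand, so either end counts as a gene end and exons, introns and UTRs were not told apart. Counts were tested with edgeR 4.0.16 (limma 3.58.1, R 4.3.3) by the quasi-likelihood test with TMM factors and filterByExpr, in 1 model of all 10 libraries and 6 contrasts. Of 122984 peaks 118954 passed the filter, and 132 of 134 Hox peaks did. Adjusted p is Benjamini-Hochberg over all of these peaks or over 16993 genes, whose counts were summed over assigned peaks. CPM values were computed with TMM-scaled library sizes. The test was also run on simulated counts with known changes and the same spread for every peak. That simulation held no shift shared by high or gene-end peaks, so it does not bear on such shifts here. Python 3.11.15 with pandas 2.3.3 collated the results.

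The members, gene lists and tests were chosen with earlier results of these data known. Peaks are named where called and among the 4 largest changes per cluster and direction at or above the median Hox level, or where among the 3 most accessible per kb of a cluster, and every Hox gene called against control is named. Alternatives in edgeR were library size alone, relative log expression (RLE) factors, trended offsets, no filter, the 2 groups compared alone, and each library left out. Further ones were the DESeq2 (1.42.0) test on peaks and, for genes, peaks within 10 kb and gene-end peaks only. A gene of the clusters is not reported by itself here, and its peaks stay in the counts and sums.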

Additional observations from a re-analysis of the deposited data

Results flagged for a closer look

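Between 3 days and 4 hours of forskolin, 10 Hox peaks differed in a direct edgeR quasi-likelihood contrast at an adjusted p under 0.05, and 9 of them are given here, each as the 3 day minus the 4 hour effect on the log2 scale. In Hoxb the difference was 0.57 in the peak 383 bp from Hoxb6 (adjusted p = 0.0145) and -1.56 in the peak 36814 bp from Hoxb1 (adjusted p = 0.0319). In Hoxc it was 0.72 inside Hoxc9 at chr15:102981694-102982167 (adjusted p = 0.00364), 0.43 at the Hoxc8 gene end (adjusted p = 0.0255) and 0.78 inside Hoxc6 (adjusted p = 0.0437). The peak inside Hoxc4 gave -0.92 (adjusted p = 0.00986), and the peak 32702 bp from Hoxc4 gave 0.64 (adjusted p = 0.00170). Inside the Hoxa3 bounds, the peak at chr6:52183780-52184130 gave -1.56 (adjusted p = 3.40e-05) and the peak at chr6:52188908-52189517 gave 0.85 (adjusted p = 0.00898). The peak at chr6:52183780-52184130 was called in every alternative, and the other 9 were lost in at least 1.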

How the results depend on the processing

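Of the 103 peak calls, 28 held in every alternative: 9 of 30 at 4 hours, 7 of 29 at 1 day, 3 of 12 at 3 days, 2 of 6 with rosiglitazone, 6 of 16 for forskolin over rosiglitazone and 1 of 10 for 3 days over 4 hours. The 30 peaks at 4 hours were 18 and the 10 for 3 days over 4 hours were 6 in DESeq2. With the 2 groups alone, the 12 at 3 days were 7 and the 6 with rosiglitazone were 10. With library size alone, trended offsets and gene-end peaks only, the 12 genes at 4 hours were 7, 7 and 3 and the 15 at 1 day were 8, 7 and 7. The 2 genes for forskolin over rosiglitazone were 4, 4 and 1 under these and 1 with peaks within 10 kb. The 1 gene for 3 days over 4 hours was 0 with gene-end peaks only and with peaks within 10 kb. With gene-end peaks only, Hoxc11 turned to 0.19 at 4 hours (adjusted p = 0.553), since its fallen peak is left out. Without their most accessible peak the mean cluster sums were 333 CPM in Hoxa, 334 in Hoxb, 557 in Hoxc and 6.86 in Hoxd, against 369, 383, 656 and 11.8. Leaving out 1 library gave 14 to 22, 13 to 25, 6 to 14 and 3 to 4 Hox peaks at 4 hours, 1 day, 3 days and with rosiglitazone, 9 to 18 for forskolin over rosiglitazone and 4 to 9 for 3 days over 4 hours. For Hox genes it gave 5 to 9, 7 to 15, 2 to 10 and 0 to 1, then 0 to 3 and 0 to 2. Over single peaks 252 of the alternative values lost a call, 39 gained one and 2884 did neither, and over single genes 113, 21 and 1407, with the Hoxc11 value above reversed. Except where a value above shows it, the cause was not tested. No paired analysis was possible because the columns are named S1 to S10 and could not be tied to the labels' replicate numbers. Depth leaves low peaks, such as those of Hoxd, with few counts and wide errors.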
